A study of Mus musculus with 3 samples.

Results

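Hsp90b1, 1810014B01Rik, Ppib and Snx22 are 4 of the 24028 genes counted in these mouse skin papillomas. Hsp90b1 and Ppib encode chaperones of the endoplasmic reticulum (ER), and 1810014B01Rik and Snx22 lie next to them on the opposite strand. The genes were chosen by symbol, from their deposited read counts in the same libraries described here, so their differences between libraries are a description and not a test. All 4 were found by Entrez identifier (22027, 66263, 19035 and 382083). Of the 4, 3 reached 10 counts in at least 1 library and Ppib did not.

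Hsp90b1 encodes GRP94, the HSP90 of the ER, which folds integrins, Toll-like receptors and other secreted or membrane proteins with the help of calcium and ATP. Ppib encodes cyclophilin B, an ER enzyme that turns proline bonds during folding and works with the prolyl 3-hydroxylase complex on collagen. Both are classic products of cells that secrete much protein, and Hsp90b1 is a textbook target of the unfolded protein response, in which ATF6 and XBP1 act on ER stress response elements. Snx22 encodes a sorting nexin, a family that binds phosphoinositides on endosomes. 1810014B01Rik is annotated as a transcribed unprocessed pseudogene, and no function is given for it here.

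Papillomas are benign epidermal tumours, and these arose in C57BL/6 mice under DMBA/TPA treatment, a carcinogen followed by a tumour promoter. The genotypes were wild-type with endogenous galectin-7, Lgals7-/- without it, and Tg46, a transgenic line with constitutive galectin-7 from the keratin 14 promoter, which is active in basal keratinocytes. Each genotype gave 1 library of RNA pooled from 3 tumours, so tumours cannot be told apart, and the age and sex of the mice are not described here. The design sets tumours without galectin-7 and tumours with forced galectin-7 against wild-type tumours.

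On GRCm38 (mm10), Hsp90b1 lies on chromosome 10 (86690209 to 86705509, minus strand) and 1810014B01Rik runs the other way (86685525 to 86694806, plus strand) in GENCODE. Their exons share 415 bases in 3 blocks, all inside coding exons of Hsp90b1, or 10.3% of the exon length of Hsp90b1 and 15.6% of that of 1810014B01Rik. In RefSeq, 1810014B01Rik ends at 86689954, 886 bases before the last base of Hsp90b1, and the genes do not overlap. The opposite-strand overlap of this pair therefore rests on the longer GENCODE transcripts. Ppib (chromosome 9, 66060222 to 66066623, plus strand) and Snx22 (66065176 to 66069719, minus strand) converge and overlap tail to tail in both annotations. They share 825 exon bases, 25.0% of Ppib and 28.5% of Snx22, all within the 3′ untranslated part of Snx22. Of these, 514 remain with GENCODE's basic transcript set alone, since a longer Ppib transcript keeps an intron. The map of exon blocks shows where the exons of each pair coincide.

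**Figure D1:**
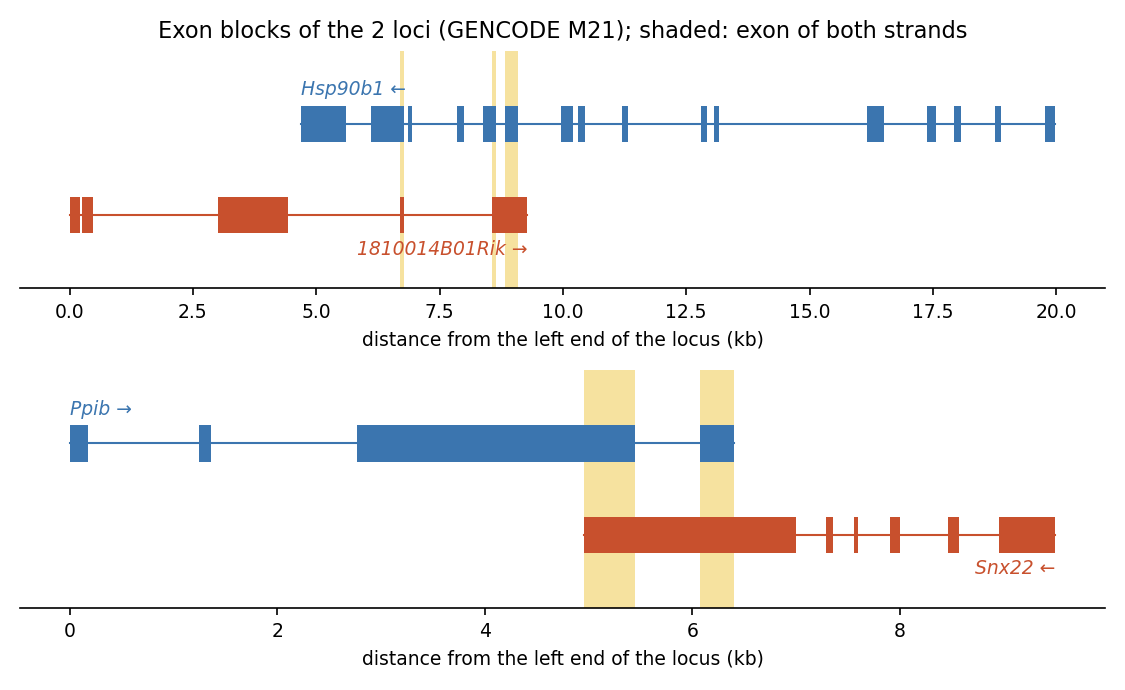
Exon blocks of Hsp90b1 and 1810014B01Rik (top) and of Ppib and Snx22 (bottom), merged over all GENCODE transcripts, along the distance from the left end of each locus in kb; arrows give the direction of transcription. Shading marks bases that are exon on both strands, 415 in the upper locus and 825 in the lower.

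The shared coding bases show what a count at the upper locus can and cannot separate. A read from either of the stretches below fits Hsp90b1 on one strand and 1810014B01Rik on the other, and only its strand tells them apart. The sequences come from the GENCODE transcripts of both genes, written 5′ to 3′, and the lines of a pair are exact reverse complements. The first pair is chr10:86692218-86692295 (78 bases) and the second chr10:86694093-86694159 (67 bases).
Hsp90b1, first stretch: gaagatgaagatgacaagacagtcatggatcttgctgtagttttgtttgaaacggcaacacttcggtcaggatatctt
1810014B01Rik, first stretch: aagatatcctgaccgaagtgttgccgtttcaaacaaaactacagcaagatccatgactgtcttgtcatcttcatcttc
Hsp90b1, second stretch: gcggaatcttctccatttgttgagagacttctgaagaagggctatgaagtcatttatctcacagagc
1810014B01Rik, second stretch: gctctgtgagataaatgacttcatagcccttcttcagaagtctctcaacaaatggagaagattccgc
The labels name the Tru RNA Sample Preparation Kit v2 and do not say whether the counts were made by strand. Counts below are those listed at each identifier, and those of a pair are also read together.

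Promoters are shown because both chaperones belong to the ER stress regulon. Whether the motifs bear on the counts in these libraries was not tested. The windows are the bases before the outermost annotated start, from RefSeq (GRCm38.p6). Capitals mark the ER stress response element (CCAAT and CCACG 9 bases apart), searched on both strands, as were a second such element (ATTGG and CCACG 1 base apart) and TGACGTGG.
Hsp90b1, chr10:86705510-86705694, minus strand: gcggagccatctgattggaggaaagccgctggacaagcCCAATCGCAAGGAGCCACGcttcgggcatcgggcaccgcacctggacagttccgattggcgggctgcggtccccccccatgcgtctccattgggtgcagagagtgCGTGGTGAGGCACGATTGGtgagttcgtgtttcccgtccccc
Ppib, chr9:66059919-66060168, plus strand: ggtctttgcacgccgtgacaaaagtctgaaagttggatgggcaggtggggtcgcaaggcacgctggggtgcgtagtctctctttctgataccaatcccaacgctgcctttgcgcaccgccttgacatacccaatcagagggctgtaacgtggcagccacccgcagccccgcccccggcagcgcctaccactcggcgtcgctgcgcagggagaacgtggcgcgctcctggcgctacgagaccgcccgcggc
Snx22, chr9:66069760-66070009, minus strand: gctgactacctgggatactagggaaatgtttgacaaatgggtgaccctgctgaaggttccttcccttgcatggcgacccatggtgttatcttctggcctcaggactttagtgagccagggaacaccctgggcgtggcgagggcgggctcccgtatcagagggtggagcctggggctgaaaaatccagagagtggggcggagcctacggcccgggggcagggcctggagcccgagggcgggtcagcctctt
The 185-base Hsp90b1 window held 2 matches, the first on the gene's strand, 128 bases before the window's end, and the second on the other strand, 23 bases before it. They do not overlap. Such an element was in 0.111% of the 27025 promoters over the same length and in 0.122% over 250 bases. Those windows end at the RefSeq start, while that of Hsp90b1 ends further upstream, at its GENCODE start. The 250-base windows of Ppib and Snx22 held none of the 3 motifs, which says only that these letters are not there. The other motifs were in 0.0333% and 0.503% of promoters. The table used had no entry for 1810014B01Rik.

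Depth was low. The wild-type library totalled 172011 counts, the Lgals7-/- library 312600 and the Tg46 library 354499. A count of 0 allows 3 counts, which is 17.4, 9.11 and 8.95 CPM (scaled counts per 1000000) in that order. Intervals below are exact at 95% and show counting error alone, because the genotypes have no replicate libraries. The reads carry no molecular identifiers and so are not independent molecules, which can make the intervals too narrow even for counting error. Lgals7, which encodes galectin-7, had 0 counts in wild-type against 2 (Lgals7-/-) and 4 (Tg46), too few to check the labels. Genes that every cell uses were also low: of 10 such genes, chosen after the data were seen, 9, 5 and 6 held under 10 counts. Gapdh, a glycolytic enzyme gene, held 0, 5 and 4 and Actb, of cytoskeletal actin, 3, 13 and 13. Levels and ranks below therefore describe the deposited table, and whether they follow the RNA in the tumours was not tested. Keratinocyte markers were present in every library, with summed levels of 706, 1367 and 1507 CPM over 8 genes, and fibroblast markers stood at 365, 401 and 436 CPM over 6. Markers of plasma cells, which are rich in ER, summed to 81.0, 131 and 110 CPM over 6 genes, with Mzb1 at 0 in wild-type and Lgals7-/-. In bulk RNA, fewer cells of a type and less RNA per cell cannot be told apart.

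The neighbours carried most of the counts at both loci, and the neighbours, not Hsp90b1, were higher in Tg46. The wild-type library held 456 counts of 1810014B01Rik, against 715 (Lgals7-/-) and 2487 (Tg46). It ranked 3, 4 and 1 among all genes by count, and made up 0.265%, 0.229% and 0.702% of the libraries. Scaled, its level was 2639 CPM (2402 to 2893) in wild-type, 2172 (2016 to 2337) in Lgals7-/- and 7421 (7132 to 7718) in Tg46. The Tg46 library stood above both others, and Lgals7-/- lay somewhat below wild-type. That last difference depends on the scaling: with upper-quartile factors the ratio was 0.954 (0.847 to 1.08), an interval that includes 1. The other scalings left out 1. As a pseudogene, 1810014B01Rik may share reads with a near-identical copy, which counts cannot show.

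Hsp90b1 itself held 41 counts (wild-type), 50 (Lgals7-/-) and 81 (Tg46). Its level was 237 CPM (170 to 322) in wild-type, 152 (113 to 200) in Lgals7-/- and 242 (192 to 300) in Tg46. The order was Tg46, wild-type, Lgals7-/-, with overlapping intervals for each pair of neighbours in that order. Its ratio of Tg46 to wild-type was 1.01 (0.691 to 1.52). Lgals7-/- over wild-type was 0.639 (0.415 to 0.992) and Tg46 over Lgals7-/- 1.59 (1.10 to 2.31). These intervals leave out 1 narrowly, and scaling by total counts ends this: they then ran to 1.04 at the top for Lgals7-/- over wild-type and from 0.992 for Tg46 over Lgals7-/-. Thinned libraries also ended it, at 0.441 to 1.20 and 0.970 to 2.57 in that order. Upper-quartile factors ended it for Lgals7-/- over wild-type (0.481 to 1.15) and not for Tg46 over Lgals7-/- (1.12 to 2.35). With DESeq2 size factors both still left out 1 (0.404 to 0.966 and 1.08 to 2.26). By the rule used here, a call needs a ratio of at least 2 in either direction and an interval that leaves out 1, so Hsp90b1 was called in no comparison.

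Snx22 held 126 counts (wild-type), 279 (Lgals7-/-) and 799 (Tg46). Its level was 729 CPM (607 to 868), 848 (751 to 953) and 2384 (2222 to 2555) in the same order. Wild-type and Lgals7-/- overlapped and Tg46 lay apart. Across it, Ppib held 1, 2 and 4 counts, that is 5.79 CPM (0.147 to 32.2), 6.08 (0.736 to 21.9) and 11.9 (3.25 to 30.6). All these intervals overlap, and no difference in Ppib was detectable with these counts. Its ratio of Tg46 to wild-type was 1.55 (0.204 to 102) and of Tg46 to Lgals7-/- 1.77 (0.282 to 21.7), and no ratio is given for Lgals7-/- over wild-type, where both counts are within the floor of 3.

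**Figure D2:**
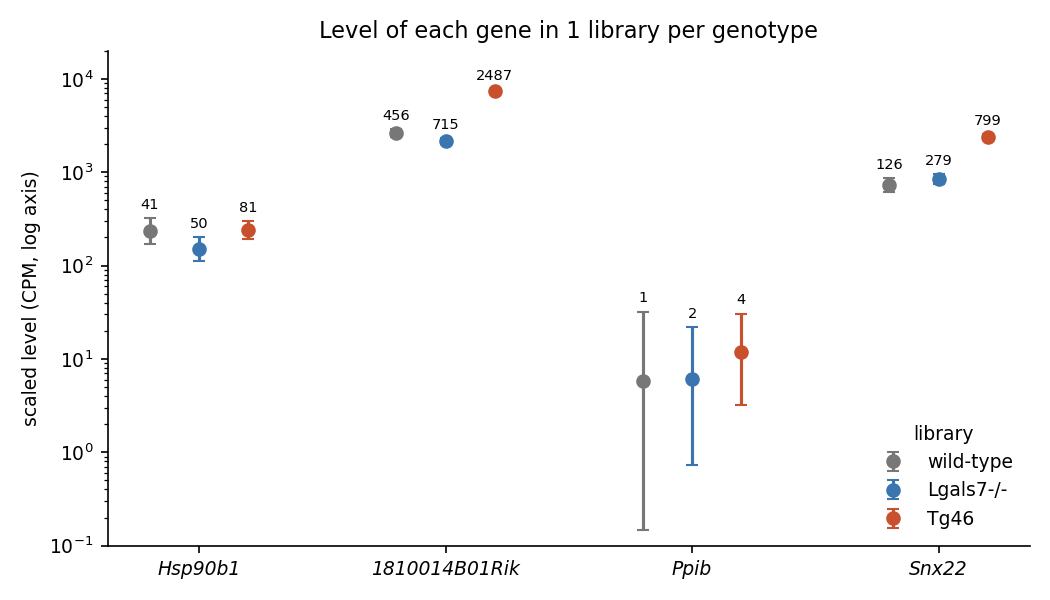
Scaled level (CPM, log axis) of the 4 genes in the wild-type, Lgals7-/- and Tg46 libraries, 1 library each; bars are exact 95% Poisson intervals and the numbers over them are the counts. 1810014B01Rik (2487 counts) and Snx22 (799) are highest in Tg46, while Hsp90b1 and Ppib in Tg46 overlap wild-type.

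In Lgals7-/- over wild-type, 0 of the 3 that could be tested passed as higher and 0 as lower, against 13.3% and 13.7% of all 12940 genes with at least 10 counts in a library. The ratio was 0.823 (0.731 to 0.928) for 1810014B01Rik and 1.16 (0.938 to 1.45) for Snx22. In Tg46 over wild-type, 1810014B01Rik was 2.81-fold higher (2.54 to 3.11) and Snx22 3.26-fold higher (2.71 to 3.98). Thus 2 of the 3 were called higher and 0 lower, against 13.7% and 13.9% of all genes. In Tg46 over Lgals7-/-, 1810014B01Rik was 3.41-fold higher (3.14 to 3.72) and Snx22 2.81-fold higher (2.45 to 3.24), again 2 of 3, against 8.43% higher and 7.73% lower among all genes. These calls chose the genes, and nothing is read from their share. The 3 comparisons share libraries, and with 1 library per genotype they compare libraries, not conditions.

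Read as loci, the sums followed the neighbours, which supplied most of the counts of each pair. The sums therefore add no separate evidence. Hsp90b1 with 1810014B01Rik summed to 497 counts (wild-type), 765 (Lgals7-/-) and 2568 (Tg46). In Tg46 the sum was 2.66-fold higher (2.42 to 2.94) than in wild-type, 3.30-fold higher (3.04 to 3.58) than in Lgals7-/-, and at a ratio of 0.808 (0.721 to 0.906) in Lgals7-/- over wild-type. Ppib with Snx22 summed to 127, 281 and 803. In Tg46 this sum was 3.25-fold higher (2.70 to 3.96) than in wild-type and 2.80-fold higher (2.45 to 3.23) than in Lgals7-/-, with 1.16 (0.938 to 1.44) between the last and wild-type. The plot of ratios sets the sums beside their members. The summed keratinocyte marker level was higher for Tg46 (1507 CPM) than for wild-type (706), and close to that of Lgals7-/- (1367). Not every marker followed the sum. Trp63 held 17 counts (wild-type) and 21 (Tg46), and Lor 8 and 7, with library totals of 172011 and 354499, so both were lower in Tg46 once scaled. Between Tg46 and Lgals7-/-, 1810014B01Rik differed 3.41-fold. The part of keratinocyte content in these results was not tested.

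**Figure D3:**
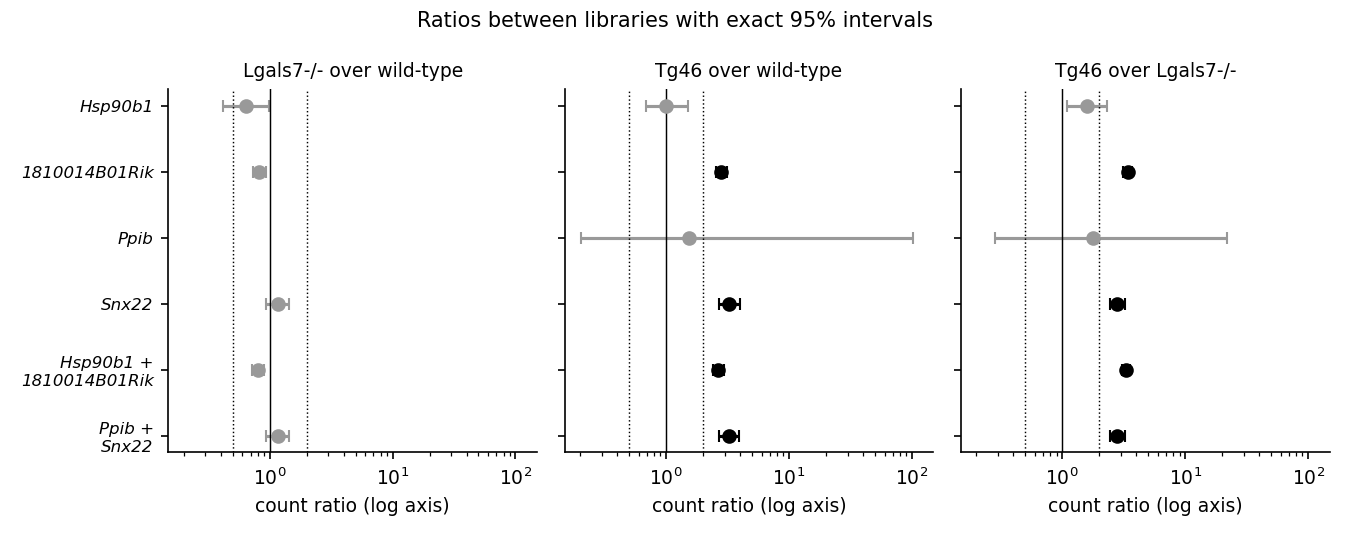
Count ratios (log axis) between libraries for the 4 genes and the sums of both pairs, with exact 95% intervals; dotted lines mark 2-fold and black points are called. 1810014B01Rik, Snx22 and both sums pass 2-fold in both comparisons of Tg46, and Hsp90b1 and Ppib do not; Ppib is left out of Lgals7-/- over wild-type.

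The split of counts within a pair needs no library scaling. Hsp90b1 held 8.25% (5.98 to 11, Clopper-Pearson) of its pair's counts in wild-type, 6.54% (4.89 to 8.53) in Lgals7-/- and 3.15% (2.51 to 3.91) in Tg46. The Tg46 share lay below both others without overlap. The odds of a count at 1810014B01Rik against Hsp90b1 were 2.76 times higher (1.82 to 4.13) in Tg46 than in wild-type and 2.15 times higher (1.46 to 3.12) than in Lgals7-/-. Between Lgals7-/- and wild-type the odds ratio was 1.29 (0.815 to 2.02). The intervals of Tg46 against both others leave out 1, but they hold counting error alone. The pair was chosen with these counts known, so this describes the libraries only. Ppib held 0.787% (0.0199 to 4.31), 0.712% (0.0863 to 2.55) and 0.498% (0.136 to 1.27) of its pair. These overlap, and the odds ratios for Snx22 against Ppib, 1.58 (0.0319 to 16.2) over wild-type and 1.43 (0.129 to 10) over Lgals7-/-, leave any unequal change undetectable.

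Per length, Hsp90b1 was listed near the top of the ER chaperones in this table and Ppib in the lower part. With Hsp90b1 and Ppib added to a list of 40 other ER chaperone and folding genes, Hsp90b1 ranked 1, 4 and 3 of 42 in wild-type, Lgals7-/- and Tg46, at 58.9, 37.7 and 59.9 CPM per kb of exon. Ppib ranked 33, 40 and 37, at 1.75, 1.84 and 3.61. The medians of the 42 were 10, 11.5 and 9.65. Erp29, a disulfide isomerase relative, was highest in Lgals7-/- and Tg46 (73.4 and 93.2). The rank of Ppib depends on the transcript length: with the basic transcript set its exons span 892 bases in place of 3305, its level was 6.49, 6.81 and 13.4 CPM per kb, and it ranked 29, 36 and 20. Hsp90b1 then ranked 1, 3 and 2.

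**Figure D4:**
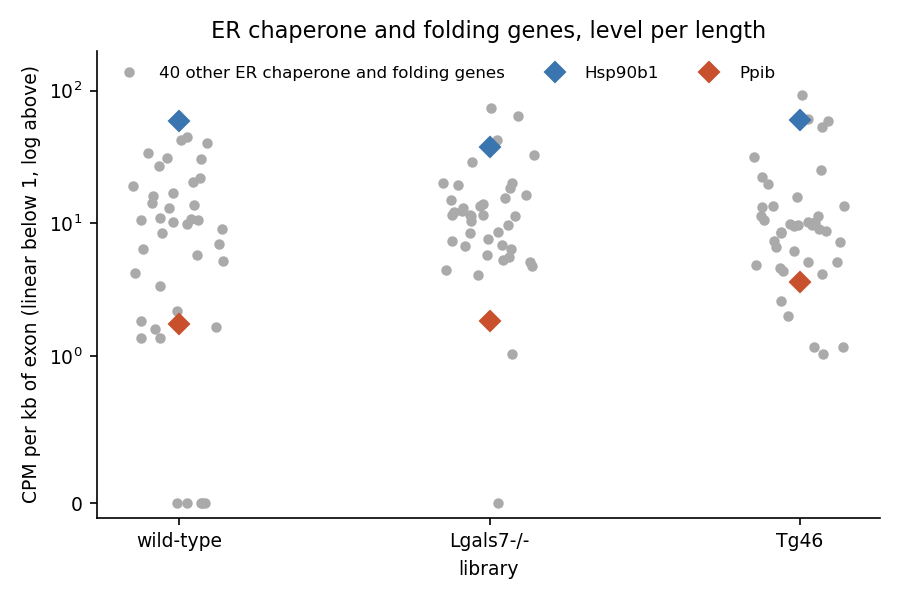
Level per length (CPM per kb of exon, linear below 1 and log above) of 40 ER chaperone and folding genes (grey, spread sideways for sight) with Hsp90b1 and Ppib (diamonds) in each library. Hsp90b1 sits near the top at 58.9, 37.7 and 59.9, and Ppib in the lower part at 1.75, 1.84 and 3.61.

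Within their own families the 3 protein-coding genes stood differently. Of 4 HSP90 genes, Hsp90b1 was the second per kb in every library, below cytosolic Hsp90ab1 at 69.5, 95.2 and 88.5 CPM per kb, although with the basic transcript set it was the first in wild-type. Of 17 cyclophilins, Ppib ranked 15, 14 and 11 per kb, and 13, 11 and 7 with the basic set. Ppia, the widely used cytosolic cyclophilin A, was itself at 0, 5 and 3 counts, as low as Gapdh. Of 30 sorting nexins, Snx22 had the highest listed level in every library, at 252, 293 and 825 CPM per kb. The next were Snx16 in wild-type (57.2), Snx17 in Lgals7-/- (31.4) and Snx32 in Tg46 (44.5). Each has a gene across it, as had 6 of the 18 other sorting nexins tested, these included, and nothing is read from this.

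Counts within both pairs were more uneven than in most opposite-strand pairs. Per kb of exon, 1810014B01Rik exceeded Hsp90b1 16.7-fold (12.3 to 23.9) in wild-type, 21.5-fold (16.3 to 29.6) in Lgals7-/- and 46.4-fold (37.4 to 59.0) in Tg46. Snx22 exceeded Ppib 96.4-fold (25.4 to 5734), 128-fold (43.7 to 1323) and 203-fold (88.8 to 840). Over 1865 annotated pairs with overlapping exons and at least 10 summed counts in a library, the median fold between the higher and the lower gene was 3.12, 2.48 and 2.72. By this fold the Hsp90b1 pair ranked 212, 97 and 47 and the Ppib pair 19, 9 and 10. Among the 343 pairs with at least 100 counts the medians were 4.52, 4.20 and 5.84 and the ranks 71, 48 and 29, and 11, 6 and 8. The genes were chosen with these counts known, so the ranks describe them only. With basic-set lengths, a choice made after the data were seen, the Ppib pair was less uneven, at 29.6-fold, 39.2-fold and 62.3-fold.

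**Figure D5:**
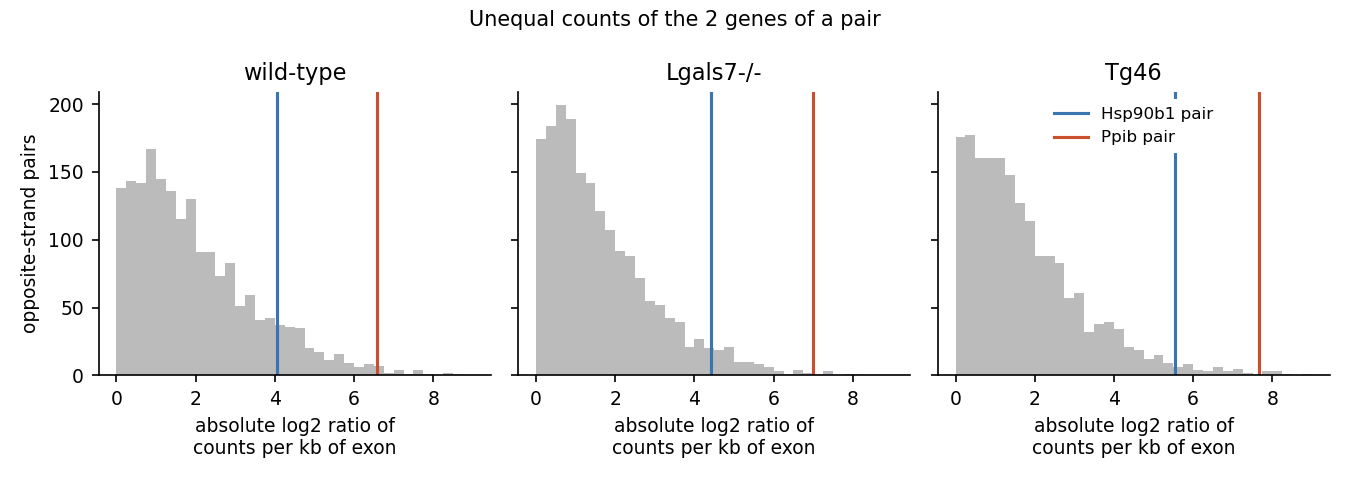
Histogram of the absolute log2 ratio of counts per kb of exon between the genes of 1865 opposite-strand pairs in each library, with lines at the Hsp90b1 pair (4.06, 4.43 and 5.54 in wild-type, Lgals7-/- and Tg46) and the Ppib pair (6.59 in wild-type and 7.67 in Tg46). Both lines lie in the right tail in every library.

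In the other pairs of these pathways, at counts that were often low, such a split toward the gene across was seldom seen. Low counts leave little room to see one. A counted gene lay across 33 genes of the 7 lists, forming 37 pairs. In 7 of them the gene across was higher per kb in all 3 libraries and in 14 it was lower in all 3. It was at least 10-fold higher throughout in 1 pair, Ppif with Ppifos. Ppif, the mitochondrial cyclophilin D gene, held 5 counts (wild-type), 3 (Lgals7-/-) and 2 (Tg46), and Ppifos 59, 202 and 151. Snx32 is arranged as Snx22 is, a sorting nexin listed higher than the gene across it, here that of the actin regulator cofilin (Cfl1). Snx32 held 18, 22 and 53 counts and Cfl1 1, 7 and 3. Erp29 also exceeded its neighbour, with 66, 219 and 283 counts against 15, 17 and 13 of Naa25. Outside the lists, like splits were found, so the split is not particular to these 2 loci. In wild-type, Lgals7-/- and Tg46, the log2 ratio per kb of Jmjd6 over Mettl23 was -5.8, -8.2 and -8.3. That of Cdk2 over Pmel was -6.2, -6.5 and -7.5. Among all pairs with both genes tested (1138), both genes were called the same way in 3.25% in Lgals7-/- over wild-type, 4.75% in Tg46 over wild-type and 3.08% in Tg46 over Lgals7-/-. Exactly 1 gene was called in 34.2%, 37.7% and 29.8%, as in the Hsp90b1 pair in both comparisons of Tg46.

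High-count genes were called higher more often than lower in Tg46. Of the 347 genes with at least 100 counts in a library, which include 1810014B01Rik and Snx22, 31.1% were called higher and 1.73% lower in Tg46 over wild-type, and 30.0% and 1.15% in Tg46 over Lgals7-/-. Their median log2 ratios were 0.64 and 0.66, against 0.11 and -0.03 over all genes tested. In Lgals7-/- over wild-type 8.93% were higher and 5.76% lower (median -0.01). Of the 347, 265 had an opposite-strand exon overlap, against 24.4% of all genes matched to GENCODE. Of the 265, 31.7% and 32.1% were called higher in Tg46, against 27.8% and 20.8% of the 72 annotated with none. Other genes near the top by count in every library also lay across a gene, such as Tsix across Xist and Syn3 across Timp3. Orc3, also near the top, had none across it. By ratio, 1810014B01Rik stood at position 48 of 347 over wild-type and 13 over Lgals7-/-, and Snx22 at 30 and 32. A gene enters this set through its highest library alone, which favours such calls in the deepest library, Tg46. With the 347 genes of highest mean CPM over the 3 libraries, a choice made after the data were seen, 23.3% were called higher and 2.59% lower in Tg46 over wild-type, and 25.1% and 0.865% in Tg46 over Lgals7-/- (medians 0.47 and 0.56). Both sets use the same libraries, so they describe these only.

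Genes with a like pattern were sought among 1189 genes with at least 100 summed counts, by the distance between centred log2 levels over the 3 libraries, a likeness that rests on 3 values. The nearest to 1810014B01Rik were Cox15 (13, 22 and 73 counts, wild-type first and Tg46 last, at a distance of 0.073), Sla2 (53, 87 and 329, at 0.127) and Inpp5e (73, 110 and 338, at 0.179). Snx22 was nearest to Glipr1 (33, 76 and 212, at 0.037), Rab10os (113, 273 and 713, at 0.105) and Ilk (14, 28 and 87, at 0.120). Hsp90b1 was nearest to Evi2 (0.043), Myo9a (0.052) and Cdk13 (0.054), and Ppib, from its 7 counts in all, to Ahsa2, Rnf167 and Denn2b (0.010 to 0.019). The neighbours were nearer to each other (0.351) than either was to its own chaperone (1.084 for 1810014B01Rik and Hsp90b1, 0.768 for Snx22 and Ppib). The genes were chosen with their counts known, and the distance to Ppib rests on its 7 counts, so nothing is read from this order. Of these 12 nearest genes, 10 had an opposite-strand exon overlap, as did 61.0% of the 1189.

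The remaining ER chaperones were called in both directions, and most in neither. For this list and those below, the shares over all genes are 13.3%, 13.7% and 8.43% higher and 13.7%, 13.9% and 7.73% lower, for Lgals7-/- and then Tg46 over wild-type and last Tg46 over Lgals7-/-. The median log2 ratios over all genes are 0.10, 0.11 and -0.03. Of 40 ER chaperones, 32 could be tested. In Lgals7-/- over wild-type, 3 passed as higher and 2 as lower, and 27 did neither (9.38% and 6.25%, median 0.01). In Tg46 over wild-type these were 4, 2 and 26 (12.5% and 6.25%, median 0.13) and in Tg46 over Lgals7-/- 2, 3 and 27 (6.25% and 9.38%, median -0.16). All lay near or under the shares over all genes. Hspa5, which encodes BiP, the ER Hsp70, held 1 count (wild-type), 21 (Lgals7-/-) and 16 (Tg46). Against wild-type it was 7.52-fold higher (1.77 to 456) in Lgals7-/- and 5.67-fold higher (1.28 to 346) in Tg46. Both folds rest on 1 count in wild-type, within the floor of 3. The J-domain co-chaperones of BiP, Dnajc3 and Dnajb11, were lower than wild-type in both libraries. Dnajc3 held 18, 9 and 2 counts and was 3.71-fold lower (1.63 to 9.63) and 14.4-fold lower (4.18 to 155), while Dnajb11 held 15, 9 and 5 and was 3.11-fold lower (1.30 to 8.23) and 5.47-fold lower (2.01 to 20.5). Between Tg46 and Lgals7-/-, the oxidase gene Ero1b (44 to 118 counts) was 2.62-fold higher (1.85 to 3.81) and Fkbp9, an ER prolyl isomerase, 2.95-fold higher (1.34 to 7.87). The stress-induced Creld2 (13 to 2) was 5.50-fold lower (1.5 to 60.4) and Manf (19 to 6), with Dcaf1 across it, 3.05-fold lower (1.24 to 9.86).

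Genes of the unfolded protein response and ER-associated degradation were mostly neither higher nor lower. Of 22 tested, 1 was called higher and 4 lower in Lgals7-/- over wild-type (4.55% and 18.2%, median -0.56). The calls were 1 and 4 in Tg46 over wild-type (median -0.36) and 2 and 1 in Tg46 over Lgals7-/- (9.09% and 4.55%, median 0.21). With so few genes these shares are near those over all genes, and nothing is read from them about the list. Atf6, the ER stress sensor that acts on ER stress response elements, held 30, 13 and 12 counts. It was 4.30-fold lower (2.23 to 9.18) in Lgals7-/- and 4.73-fold lower (2.41 to 10.4) in Tg46 than in wild-type, while Hsp90b1 was called in neither. Ern1, the sensor IRE1, held 11, 26 and 12 counts and was 2.16-fold lower (1.07 to 4.80) in Tg46 than in Lgals7-/-. Creb3, a related ER membrane factor with Tln1 and Gba2 across it, held 35, 40 and 86 and was 2.10-fold higher (1.44 to 3.15).

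Partners and clients of the chaperones were called at shares on both sides of those over all genes. Of 11 collagen modification genes tested, 0, 3 and 2 were called higher and 1, 1 and 0 lower, in the same order of comparisons (0%, 27.3% and 18.2%, and 9.09%, 9.09% and 0%, with medians of 0.66, 0.87 and 0.67). P3h1, the prolyl 3-hydroxylase that works with cyclophilin B, held 0, 6 and 11 counts. With 3 counts in place of the 0 in wild-type, it was 1.89-fold higher in Tg46. Plod1, a lysyl hydroxylase, held 8, 13 and 37 and was 2.27-fold higher (1.09 to 5.93) over wild-type and 2.73-fold higher (1.45 to 5.73) over Lgals7-/-. Of 22 integrins, Toll-like receptors and other clients of GRP94, 3, 2 and 1 were called higher and 4, 4 and 0 lower (13.6%, 9.09% and 4.55%, and 18.2%, 18.2% and 0%, with medians of -0.03, 0.30 and 0.09). Tlr1, a receptor of bacterial lipopeptides, held 0, 5 and 17 counts. In Tg46 it was 2.92-fold higher than in wild-type, with 3 counts in place of the 0, and 3.13-fold higher (1.18 to 11.6) than in Lgals7-/-. Itga1, a collagen-binding integrin subunit, held 22, 11 and 12 and was 3.73-fold lower (1.77 to 8.70) and 3.49-fold lower (1.69 to 7.88) than in wild-type.

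In the members' own families, calls were made at 0% to 33.3% of the genes tested in a direction. Among the 3 other HSP90 genes, Hsp90aa1, the inducible cytosolic form, held 24, 2 and 7 counts. It was 18.7-fold lower (5.68 to 200) in Lgals7-/- and 6.34-fold lower (2.78 to 18.3) in Tg46 than in wild-type, and the other 2 were called in no comparison (medians over the 3 of -1.17, 0.20 and 1.37). Of 9 other cyclophilins tested, 1, 1 and 0 were called higher and 1, 2 and 0 lower (11.1%, 11.1% and 0%, and 11.1%, 22.2% and 0%, with medians of -0.43, -0.68 and -0.15). Ppig, a nuclear cyclophilin, held 12, 57 and 82 counts and was 2.41-fold higher (1.32 to 5.11) and 3.40-fold higher (1.91 to 7.10). Of 18 other sorting nexins, 3, 1 and 2 were called higher and 4, 4 and 1 lower (16.7%, 5.56% and 11.1%, and 22.2%, 22.2% and 5.56%, with medians of -0.31, 0.20 and -0.03). Besides Snx22 and Snx32, which was 2.34-fold higher (1.41 to 4.09) in Tg46 than in Lgals7-/-, Snx9, of clathrin-mediated endocytosis, held 6, 1 and 14 counts and was 9.49-fold higher (2.09 to 581) there. In all these lists a gene could pass the filter through its highest library alone, which favours a call.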

How the data were processed

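RNA from 3 pooled papillomas per genotype was isolated with TRIzol and RNeasy columns and made into 1 library with an Illumina kit, per the labels' protocols. The authors deposited whole-number read counts per Entrez identifier, not normalised. Coordinates use mm10, per the submitters' processing notes. Their aligner, counter, annotation and strand setting were not given in the sources used here. RefSeq gave a symbol for 23968 of the 24028 identifiers, and GENCODE M21 a gene for 23708, whose merged exons gave lengths and overlaps.

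TMM factors (edgeR 4.0.16) scaled the counts, from genes with at least 10 counts in a library (R 4.3.3). Ratios had 0.5 counts added per library and carry Clopper-Pearson intervals of the pair of counts. Calls needed 2-fold and an interval that leaves out 1. No quasi-likelihood test was possible with 1 library a group. Where a library held 0, a fold has 3 counts in place of the 0 and takes the other count as exact, so it is not the lower end of an interval. Odds ratios within pairs are conditional, with exact intervals. Ratios and intervals were run on simulated Poisson counts with known folds. These hold no spread between tumours or libraries, so the run checks the calculation and not the error of these data. Genes named outside the 4 came from up to 3 called genes with the largest log2 ratio per list, direction and comparison, and the 3 nearest genes per member. Chosen after their values were seen were Erp29 with Naa25, Hsp90ab1, Ppia, Snx16, Snx17, Ppif with Ppifos, Cfl1, Gapdh and Actb. So were Jmjd6 with Mettl23, Cdk2 with Pmel, Tsix with Xist, Syn3 with Timp3, and Orc3. Members and lists were chosen with earlier results of these data known. Alternatives tried were scaling by total counts, by upper quartiles and by DESeq2 1.42.0 size factors, 5 added counts, thinned libraries, other filters and other exon lengths. Python 3.11.15, numpy 2.4.6, scipy 1.17.1, pandas 2.3.3 and matplotlib 3.10.9 were used.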

Additional observations from a re-analysis of the deposited data

How the results depend on the processing

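No paired analysis was possible because the genotypes have 1 library apiece. All 60 recomputed ratios of the 4 genes and all 30 of the locus sums stayed on the same side of the call, under 3 other scalings, 5 added counts and thinned libraries. Those outside their interval were 1810014B01Rik at 0.954 (Lgals7-/- over wild-type) and 3.32 (Tg46 over wild-type) with upper-quartile factors and at 3.07 (Tg46 over Lgals7-/-) with total counts, and its locus sum at 0.937, 3.14 and 2.96 under the same settings. The intervals at 0.954 (0.847 to 1.08) and 0.937 (0.836 to 1.05) include 1. The uncalled Ppib ratio of Tg46 to wild-type ranged from 0.773 with 5 added counts to 2.33 with thinned libraries, and that of Hsp90b1 from 0.953 to 1.20. Upper-quartile factors moved the median log2 ratio of all genes by 0.21 and 0.24 in the comparisons with wild-type, where the share of calls that were higher went from 49.2% to 61.5% and from 49.6% to 63.2%. Total counts moved it by -0.16 in Tg46 over Lgals7-/-, and that share from 52.2% to 35.6%. The basic transcript set gave folds per kb of 12.2, 15.7 and 33.8 for 1810014B01Rik over Hsp90b1 in wild-type, Lgals7-/- and Tg46, and 39.2 and 62.3 for Snx22 over Ppib in the last 2, because exon lengths differ. Median folds of opposite-strand pairs with 100 counts were 4.20 in Lgals7-/- and 5.84 in Tg46.

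Counts of calls are given first for Lgals7-/- and then for Tg46 over wild-type, and last for Tg46 over Lgals7-/-. Over all genes, 1715, 1768 and 1091 were called higher and 1772, 1793 and 1000 lower. A filter of 100 counts leaves fewer genes to test, of which 31, 108 and 104 were higher and 20, 6 and 4 lower, and 584 and 658 were higher than wild-type with 5 added counts. Over the 117 list genes tested, 11, 12 and 9 were higher and 17, 18 and 5 lower. With 100 counts, 0, 1 and 1 of the 2 left were higher and 0, 0 and 0 lower, and with 5 added counts 4 and 5 were higher than wild-type. Among the 81 without an opposite-strand overlap, 5 were higher and 3 lower in Tg46 over Lgals7-/-. Where no cause follows from the setting, the cause was not tested. With 1 to 4 counts a library, the intervals of Ppib are the widest of the 4 genes, and whether depth or the way of counting set these counts was not tested. Choosing the high-count genes by mean CPM, an alternative added after the data were seen, changed the count lower in Lgals7-/- than in wild-type from 20 to 31.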
